A study of Mus musculus with 20 samples.

Results

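Glycolysis and the response to low oxygen were read from 38 listed mouse genes, which were chosen by what their products do: sugar uptake, the steps from glucose to lactate, the control of pyruvate entry into mitochondria, and oxygen sensing with its target genes. A gene was kept where the array annotation ties at least 1 probeset to it alone, and of its probesets the brightest over the 20 arrays was used. This gave 36 members of the 18193 genes so measured, and *Gpi1* and *Eno1* were not analysed here. Total RNA had been hybridized to Affymetrix MOE430 2.0 arrays, 1 array for each of 8 tumors from RbΔEC; Trp53ΔEC mice, 7 tumors from Trp53ΔEC mice and 5 samples of wild type control skin, all on the FVB strain. In both tumor genotypes Cre recombinase, driven by the keratin 14 promoter of basal keratinocytes, removes *Trp53* flanked by loxP sites, and in RbΔEC; Trp53ΔEC mice it removes *Rb1* as well. By histology 5 carcinomas were undifferentiated or spindle cell (3 and 2), 4 were mixed, with differentiated as well as undifferentiated areas, and 6 were poorly differentiated. The groups by grade held both genotypes: 3 of the 5 undifferentiated/spindle, 1 of the 4 mixed and 4 of the 6 poorly differentiated carcinomas were RbΔEC; Trp53ΔEC tumors. Skin donors were 2 months old, while no age is recorded for the tumor-bearing animals, so that age and tumor growth cannot be told apart. It is also not recorded that each tumor came from a different mouse, and p-values therefore measure the spread between these samples only.

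Cells that run short of oxygen stop degrading the transcription factor subunit HIF-1α, which prolyl hydroxylases of the EGLN family otherwise mark for destruction. Stabilized HIF-1 binds short core motifs beside its target genes and raises glucose carriers, most glycolytic enzymes, lactate export, and the kinase that keeps pyruvate out of mitochondria. Tumors often run this program even where oxygen is present, while skeletal muscle uses its own isoforms of the same enzymes, and because skin samples can include the muscle sheet below the dermis the 4 muscle isoforms *Slc2a4*, *Pfkm*, *Pgam2* and *Eno3* are set apart here.

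All levels are log2 values as the authors normalized them, and they allow a gene to be compared between arrays but not one gene with another. Array medians lay between 5.65 and 5.75 in tumors and between 5.58 and 5.63 in skin. *Rb1*, the gene removed only in RbΔEC; Trp53ΔEC tumors, lay between 6.55 and 8.14 there, between 7.85 and 8.84 in Trp53ΔEC tumors and between 8.95 and 9.26 in skin. The tumor genotypes thus overlapped, and where its probeset lies relative to the deleted part was not checked. *Trp53* was not analysed here. Genes were called at an adjusted p under 0.05 from limma, a linear model whose spread is moderated across genes, with the adjustment over all 18193 genes.

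Members were called against normal skin and between histological groups, and none was called between the genotypes. In all 15 tumors against normal skin, 9 of 36 members rose and 7 fell, where 17.7% of all genes rose and 18.0% fell. Every tumor lay above every skin sample in 6 members and below every one in 6. The share of all genes in which carcinomas and skin did not overlap was not counted. Undifferentiated/spindle carcinomas against skin had 7 members that rose and 9 that fell, with 22.0% and 20.2% of all genes, and poorly differentiated carcinomas against skin had 15 that rose and 8 that fell, with 19.2% and 19.6%. Both of these comparisons share the same 5 skin arrays. Set directly against poorly differentiated carcinomas, undifferentiated/spindle carcinomas had 2 members that rose and 10 that fell, beside 12.7% and 9.9% of all genes. RbΔEC; Trp53ΔEC against Trp53ΔEC tumors had no member called in either direction, beside 0.011% of all genes that rose and 0.022% that fell. With the unequal-variance test per gene that stands closest to the test of the study, 5 members in place of 10 fell between the carcinoma groups, and *Egln3*, *Hif1a*, *Pfkp*, *Slc16a1* and *Slc2a1* lost their call (adjusted p 0.0541 to 0.0983). Without the 4 muscle isoforms, the median log2 difference of the 32 remaining members was 0.07 in undifferentiated/spindle and 0.91 in poorly differentiated carcinomas against skin, where the median over all genes was 0.02 and 0.00, and −0.61 in undifferentiated/spindle against poorly differentiated carcinomas, where it was 0.02.

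**Figure D1:**
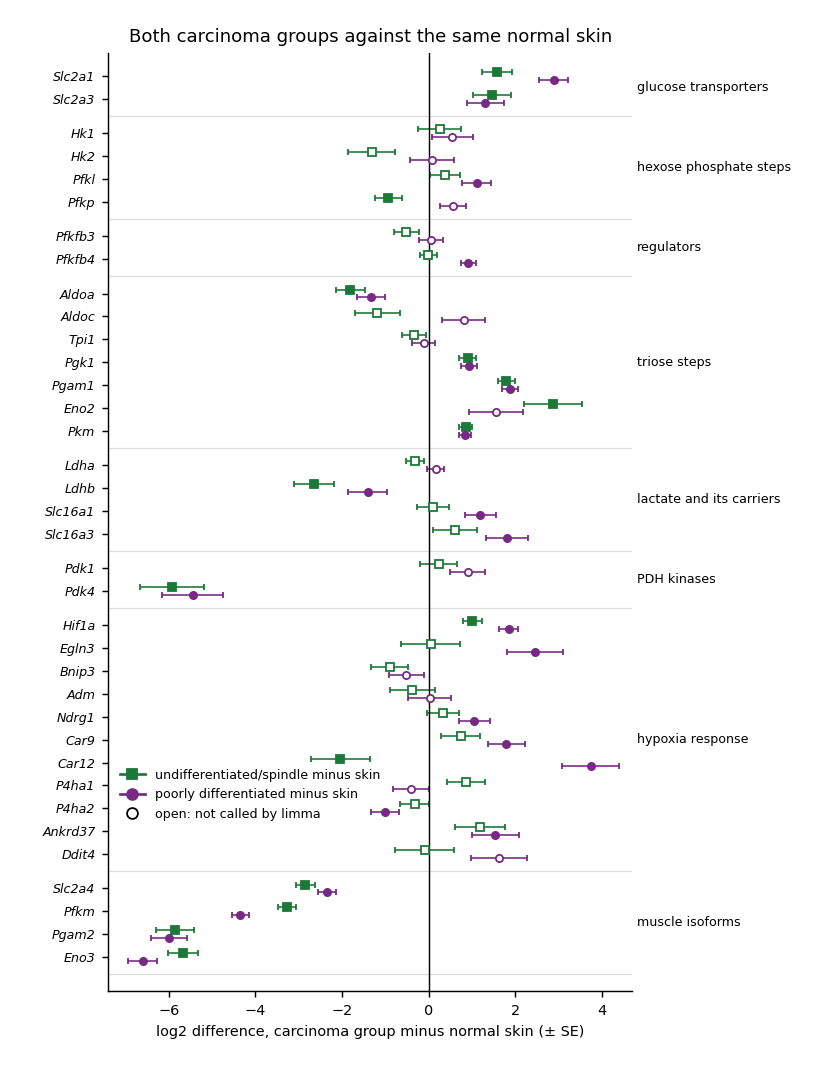
Log2 difference from normal skin (n = 5) for undifferentiated/spindle carcinomas (n = 5, squares) and poorly differentiated carcinomas (n = 6, circles), by member and role, with bars for the standard error, filled where limma's adjusted p was under 0.05 and open where it was not. *Car12*, *Egln3*, *Hif1a* and *Slc2a1* lie farther right in poorly differentiated carcinomas and *P4ha1*, *P4ha2* and *Slc2a3* in undifferentiated/spindle ones, *Pgk1*, *Pgam1* and *Pkm* lie right of 0 in both, and the 4 muscle isoforms and *Pdk4* lie far to the left in both.

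The core motifs of HIF were looked up in the promoters of the members. Known targets of HIF are among the members by choice, so that a high share of cores is not independent of how they were picked. RefSeq promoter windows (GRCm38.p6, 250 bases before to 50 after a gene's start) were found for 33 members, and ACGTG or GCGTG stood on either strand in at least 1 window of 29 of them (87.9%). Among all genes of the array with a window 59.3% held such a core, and among all windows 43.8% did. The hypoxia-response members held it in 9 of 10. Genes with several start sites have several chances to hold a core, and a core in these letters is a description, not a bound site. Shown are the called members with 1 window that differed most between the histological groups in their role, then a pair of phosphoglycerate mutases, the general Pgam1 and the muscle Pgam2. Each runs 5′ to 3′ along the strand of its gene, with the cores in capitals.
Slc2a1, chr4:119108495-119108794, plus strand: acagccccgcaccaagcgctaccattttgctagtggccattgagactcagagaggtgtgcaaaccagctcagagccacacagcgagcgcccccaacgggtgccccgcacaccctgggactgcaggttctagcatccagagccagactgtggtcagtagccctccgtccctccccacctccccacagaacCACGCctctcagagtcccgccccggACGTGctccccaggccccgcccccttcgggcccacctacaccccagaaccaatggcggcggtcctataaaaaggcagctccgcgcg
Pfkp, chr13:6648722-6649021, minus strand: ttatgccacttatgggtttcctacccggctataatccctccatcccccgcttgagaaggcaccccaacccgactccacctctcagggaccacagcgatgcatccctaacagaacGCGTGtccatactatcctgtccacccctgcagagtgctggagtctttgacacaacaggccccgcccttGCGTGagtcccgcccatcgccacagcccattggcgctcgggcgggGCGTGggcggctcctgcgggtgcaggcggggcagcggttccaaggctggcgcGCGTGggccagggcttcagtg
Pfkfb4, chr9:108991652-108991951, plus strand: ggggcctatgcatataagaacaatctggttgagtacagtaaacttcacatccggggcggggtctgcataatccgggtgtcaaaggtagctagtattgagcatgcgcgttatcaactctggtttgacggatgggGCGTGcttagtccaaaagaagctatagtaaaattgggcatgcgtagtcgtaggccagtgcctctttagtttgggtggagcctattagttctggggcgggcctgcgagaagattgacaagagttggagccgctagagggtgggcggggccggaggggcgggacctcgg
Slc16a1, chr3:104638414-104638713, plus strand: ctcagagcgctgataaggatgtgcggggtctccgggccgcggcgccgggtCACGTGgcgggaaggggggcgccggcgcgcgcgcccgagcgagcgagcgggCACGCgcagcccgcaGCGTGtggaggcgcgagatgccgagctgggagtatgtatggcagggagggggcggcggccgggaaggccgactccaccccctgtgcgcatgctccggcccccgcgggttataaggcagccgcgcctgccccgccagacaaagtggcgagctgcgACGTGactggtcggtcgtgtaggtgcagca
Car12, chr9:66713436-66713735, plus strand: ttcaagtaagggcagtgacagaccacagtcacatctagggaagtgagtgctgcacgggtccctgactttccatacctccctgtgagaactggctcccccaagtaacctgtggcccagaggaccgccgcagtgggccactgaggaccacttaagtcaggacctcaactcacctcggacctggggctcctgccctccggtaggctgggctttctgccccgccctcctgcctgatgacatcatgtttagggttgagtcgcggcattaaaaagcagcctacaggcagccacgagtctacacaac
Pgam1, chr19:41911621-41911920, plus strand: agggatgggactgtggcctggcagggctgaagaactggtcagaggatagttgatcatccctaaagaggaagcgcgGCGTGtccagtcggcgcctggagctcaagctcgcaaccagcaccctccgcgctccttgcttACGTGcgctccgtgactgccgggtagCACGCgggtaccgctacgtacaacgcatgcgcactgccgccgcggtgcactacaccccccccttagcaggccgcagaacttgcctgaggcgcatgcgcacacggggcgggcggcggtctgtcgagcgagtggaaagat
Pgam2, chr11:5803747-5804046, minus strand: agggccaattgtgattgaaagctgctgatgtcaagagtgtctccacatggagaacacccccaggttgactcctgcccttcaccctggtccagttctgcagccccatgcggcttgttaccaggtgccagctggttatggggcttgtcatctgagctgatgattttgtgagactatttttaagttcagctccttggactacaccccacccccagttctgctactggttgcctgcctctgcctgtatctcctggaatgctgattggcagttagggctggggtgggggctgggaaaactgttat
*Slc2a1* held 2 cores, *Pfkp* 4, *Pfkfb4* 1 and *Pgam1* 3, and *Slc16a1* held 5, of which 2 are the same palindrome read on both strands. *Car12* and *Pgam2* held none in these windows.

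*Car12*, which encodes a membrane carbonic anhydrase that hydrates carbon dioxide outside the cell, differed most between the histological groups. Its log2 level was 4.86 and 5.25 in the spindle cell and 5.86, 4.42 and 5.09 in the undifferentiated carcinomas, against 10.46 at the lowest, 10.90 at the median and 11.48 at the highest of the 6 poorly differentiated ones. The 4 mixed tumors had 8.57, 10.16, 7.12 and 4.53, and the skin samples 6.27, 7.08, 7.04, 8.45 and 6.85. Every undifferentiated/spindle carcinoma thus lay below every skin sample and every poorly differentiated carcinoma above, with the mixed tumors spread between. The log2 difference between the carcinoma groups was −5.78 (SE 0.25, adjusted p = 1.28e-07), a level 55.1 times lower in undifferentiated/spindle carcinomas. Against skin *Car12* fell by 2.04 in undifferentiated/spindle carcinomas (SE 0.69, adjusted p = 0.0223) and rose by 3.74 in poorly differentiated ones (SE 0.66, adjusted p = 0.00019). The call against skin in undifferentiated/spindle carcinomas was lost without skin sample 4 (adjusted p = 0.0664) or RbΔEC; Trp53ΔEC tumor 3 (0.0525). With the median of its 3 probesets this difference was −0.31 (adjusted p = 0.234). Between the carcinoma groups 2 of the 3 probesets were called lower, and their differences ran from −5.78 to −0.16. Total RNA of a tissue does not show whether fewer cells of a type or less RNA per cell lowered a level, and these cannot be told apart here for any member.

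*Egln3*, the prolyl hydroxylase of this family that is itself raised by HIF, was likewise lower in undifferentiated/spindle than in poorly differentiated carcinomas. It read 7.13 and 7.57 in the spindle cell and 9.44, 10.01 and 9.48 in the undifferentiated carcinomas, against a lowest of 10.20, a median of 10.99 and a highest of 12.39 in poorly differentiated ones. No array of one group reached the other, although the highest undifferentiated and the lowest poorly differentiated tumor lay close. The log2 difference was −2.41 (SE 0.60, adjusted p = 0.0138). Skin lay in a narrow band from 8.43 to 8.89, above which *Egln3* rose by 2.45 in poorly differentiated carcinomas (SE 0.64, adjusted p = 0.00538), while undifferentiated/spindle carcinomas differed from skin by 0.04 (SE 0.67, adjusted p = 0.969). The other of its 2 probesets differed from skin by 0.94 and by −0.80 in these groups, and neither was called. *Car12* and *Egln3* were the 2 members in which every undifferentiated/spindle carcinoma lay below every poorly differentiated one, and *Pfkm* was the 1 in which every one lay above. Over all genes such a gap was seen in 6.89% downwards and 7.43% upwards.

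*Hif1a*, which encodes the oxygen-regulated subunit itself, was higher than skin in both carcinoma groups. Its level was 11.22, 11.47, 11.90, 12.17 and 11.67 in undifferentiated/spindle carcinomas and 12.05 at the lowest, 12.50 at the median and 13.03 at the highest of the poorly differentiated ones, against 11.10, 10.52, 10.62, 10.55 and 10.59 in skin. All 15 tumors lay above all skin samples, the nearest being a mixed tumor at 11.11. Against skin it rose by 1.01 in undifferentiated/spindle (SE 0.22, adjusted p = 0.00112) and by 1.84 in poorly differentiated carcinomas (SE 0.21, adjusted p = 1.83e-06). Between the carcinoma groups it was lower in undifferentiated/spindle ones, by a log2 difference of −0.84 (SE 0.24, adjusted p = 0.0287). That call was lost without any 1 of 6 arrays, Trp53ΔEC tumors 1, 4 and 6 and RbΔEC; Trp53ΔEC tumors 1, 2 and 5, with an adjusted p between 0.0516 and 0.0717. Of the 4 *Hif1a* probesets 2 were called lower between these groups, with differences over all 4 from −1.11 to −0.41. HIF-1α is governed mainly through its protein, which these arrays do not measure.

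*Car9*, the other carbonic anhydrase and a classical HIF target, lay above every skin sample in all 15 tumors. It was at 5.90 to 6.86 in undifferentiated/spindle and at 6.37 to 8.77 in poorly differentiated carcinomas, against 5.32 to 5.84 in skin. The mixed tumors had 5.86 to 7.87, and the lowest of them nearly met the highest skin sample. The rise was 1.79 in poorly differentiated carcinomas (SE 0.43, adjusted p = 0.00264), and the difference of 0.74 in undifferentiated/spindle ones did not pass the test (SE 0.45, adjusted p = 0.198). The poorly differentiated tumors were split, with 3 of the 6 at 7.54, 8.57 and 8.77 and the others at 6.72 or below. Over the 15 tumors the rise was 1.21 (SE 0.41, adjusted p = 0.0271), a call lost without skin sample 1, 2, 3 or 4 (0.0519 to 0.0687). *Ankrd37*, a hypoxia-induced ankyrin repeat gene, rose by 1.26 in the 15 tumors (SE 0.47, adjusted p = 0.041) and by 1.54 in poorly differentiated ones (SE 0.55, adjusted p = 0.0332). It ranged over 5.02 to 8.17 in undifferentiated/spindle and 6.01 to 8.78 in poorly differentiated carcinomas, against 5.37 to 5.94 in skin. Its calls were fragile. The first was lost without any 1 of 10 arrays, which were each skin sample and RbΔEC; Trp53ΔEC tumors 3 to 7 (adjusted p 0.0543 to 0.0941), and the second without any 1 of 7, which were skin samples 1, 3, 4 and 5 and RbΔEC; Trp53ΔEC tumors 6, 7 and 8 (0.0502 to 0.0805). The second was lost by the unequal-variance test too (0.0514).

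The other targets of the hypoxia response differed in direction and in whether they passed the test. *Ddit4*, which encodes an inhibitor of the growth kinase mTORC1, was lower in undifferentiated/spindle carcinomas, at 8.50, 7.25, 9.46, 7.95 and 7.66 against 9.12 at the lowest, 9.87 at the median and 10.74 at the highest in poorly differentiated ones (log2 difference −1.72, SE 0.41, adjusted p = 0.011). The groups overlapped by 1 undifferentiated tumor, and with the mixed tumors counted among the undifferentiated/spindle ones *Ddit4* differed by −0.99 (adjusted p = 0.392). The call was also lost in the fit of 4 groups over all arrays (0.0623). Against skin, where it had 7.74 to 8.80, *Ddit4* differed by −0.09 in undifferentiated/spindle carcinomas (adjusted p = 0.931) and by 1.62 in poorly differentiated ones (SE 0.65, adjusted p = 0.0547). *Ndrg1*, a stress-induced gene, had 10.02 to 11.18 in undifferentiated/spindle and 10.56 to 12.06 in poorly differentiated carcinomas, against 10.11 to 10.68 in skin. Against skin it rose in the poorly differentiated group by 1.05 (SE 0.36, adjusted p = 0.026), in the undifferentiated/spindle group it differed by 0.33 (adjusted p = 0.515), and its direct difference between the carcinoma groups was −0.72 (adjusted p = 0.13). The rise was lost without skin sample 1 or 5, Trp53ΔEC tumor 6 or RbΔEC; Trp53ΔEC tumor 7 or 8 (0.0527 to 0.0591), and with the median of its probesets (0.70, adjusted p = 0.107). *Bnip3*, a receptor that marks mitochondria for removal, and *Adm*, which encodes the vessel-widening peptide adrenomedullin, were not called by limma in any comparison, although by the unequal-variance test *Bnip3* fell in the 15 tumors (−0.61, adjusted p = 0.0292) and in poorly differentiated carcinomas (−0.52, adjusted p = 0.0401) against skin. *Bnip3* had 8.49 to 11.74 in undifferentiated/spindle and 10.34 to 11.43 in poorly differentiated carcinomas against 11.15 to 11.51 in skin, and *Adm* 6.32 to 9.72 and 8.05 to 9.18 against 8.01 to 9.56.

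The collagen prolyl 4-hydroxylase subunits *P4ha1* and *P4ha2*, which modify procollagen for its triple helix, read higher in undifferentiated/spindle than in poorly differentiated carcinomas, and *P4ha1* passed the test. It was at 9.73, 8.90, 9.99, 10.07 and 10.70 in undifferentiated/spindle carcinomas, against 7.98 at the lowest, 8.68 at the median and 9.09 at the highest in poorly differentiated ones. Of the hypoxia-response members it was the 1 that rose between the carcinoma groups, by 1.26 (SE 0.29, adjusted p = 0.00801), and 1 spindle cell tumor lay within the other group's range. Skin, at 8.60 to 9.49, lay between, and neither carcinoma group differed from it past the test (0.86, adjusted p = 0.126, and −0.41, adjusted p = 0.479). With the median of its 2 probesets, however, *P4ha1* rose in undifferentiated/spindle carcinomas against skin by 1.60 (adjusted p = 0.00401), and the dimmer probeset alone by 2.34. *P4ha2* fell against skin in poorly differentiated carcinomas (log2 difference −1.001, SE 0.32, adjusted p = 0.0186), with 8.26 to 8.87 there and 9.23 to 10.02 in skin, a call lost without skin sample 1 (0.0528). In undifferentiated/spindle carcinomas *P4ha2* ranged over 8.47 to 10.50, and its difference from the poorly differentiated ones was 0.67 (adjusted p = 0.194).

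**Figure D2:**
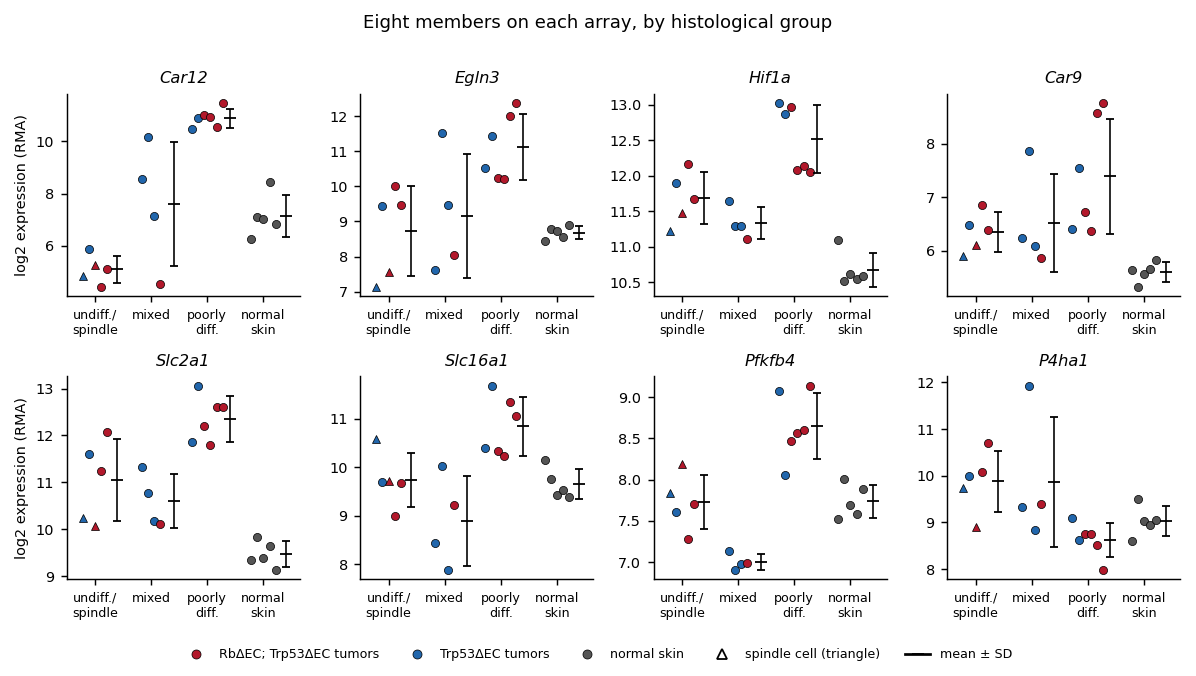
Log2 level of 8 members on each array, by histological group, with colour for genotype, triangles for spindle cell carcinomas and the mean ± SD beside each group (n = 5, 4, 6 and 5). *Car12* lies below 6 in all 5 undifferentiated/spindle carcinomas and above 10 in all 6 poorly differentiated ones, *Slc2a1* and *Hif1a* lie above skin in every tumor, and *P4ha1* is higher in undifferentiated/spindle carcinomas.

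Cell makeup and RNA quality moved with these differences by histology. Of 9 keratinocyte markers 8 fell in undifferentiated/spindle against poorly differentiated carcinomas, and their mean level lay between 5.17 and 9.24, against 10.83 to 12.72. Of 8 macrophage markers 5 rose, with a mean level of 10.37 to 11.13 against 7.17 to 9.48, and of 7 markers of fibroblasts and mesenchyme 3 rose, with 12.50 to 13.16 against 8.86 to 12.26. Of 6 endothelial markers 4 rose (7.01 to 8.08 against 5.68 to 7.15), and of 5 neutrophil markers 2 fell (4.699 to 5.28 against 5.52 to 7.05). The difference between the 3′ and the 5′ end of *Actb*, a sign of degraded RNA where it is large, was 0.24 to 0.38 in undifferentiated/spindle and 0.42 to 0.82 in poorly differentiated carcinomas. In skin this difference was 0.50 to 1.19, above every undifferentiated/spindle carcinoma, and in mixed tumors it was 0.38 to 0.66. The part of any of these in the members' differences was not tested.

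Glucose enters most cells through the carrier encoded by *Slc2a1*, GLUT1, which was higher in every tumor than in every skin sample. It had 10.25 and 10.07 in the spindle cell and 11.62, 11.24 and 12.08 in the undifferentiated carcinomas, and 11.81 at the lowest, 12.40 at the median and 13.06 at the highest in poorly differentiated ones, against 9.35, 9.84, 9.40, 9.64 and 9.14 in skin. The rise against skin was 1.58 in undifferentiated/spindle (SE 0.35, adjusted p = 0.00127) and 2.88 in poorly differentiated carcinomas (SE 0.34, adjusted p = 2.22e-06), or 2.99 and 7.38 times the level of skin. All 3 of its probesets were called in both comparisons. The direct difference of −1.31 (SE 0.38, adjusted p = 0.0273) was lost without any 1 of Trp53ΔEC tumors 1 and 6 and RbΔEC; Trp53ΔEC tumors 1, 7 and 8 (0.0543 to 0.068), and 1 undifferentiated tumor reached into the poorly differentiated range. *Slc2a3*, which encodes the high-affinity carrier GLUT3, had 7.26 to 8.84 in undifferentiated/spindle and 7.32 to 8.60 in poorly differentiated carcinomas, against 6.001 to 6.94 in skin. It rose by 1.46 (SE 0.44, adjusted p = 0.0119) and by 1.31 (SE 0.42, adjusted p = 0.0198). The second call was lost without skin sample 4 (0.0555) and with the median of its 4 probesets (0.59, adjusted p = 0.147), of which the dimmer ones read 0.06 to 1.05 above skin in poorly differentiated carcinomas.

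Hexokinase traps glucose in the cell, and its isoform *Hk2* is the one that muscle and tumors use. *Hk2* had 8.53, 8.43, 9.53, 9.11 and 9.75 in undifferentiated/spindle carcinomas, against 9.74 at the lowest, 10.51 at the median and 10.99 at the highest in poorly differentiated ones, a log2 difference of −1.40 (SE 0.29, adjusted p = 0.00466). The groups met at 9.75 and 9.74, and the call was lost in the fit of 4 groups over all arrays (0.0555). All 5 undifferentiated/spindle tumors also lay below skin (10.03 to 10.67), but that difference of −1.32 did not pass the test (SE 0.54, adjusted p = 0.0555). The mixed tumors stood apart, with 11.54, 12.58 and 12.67 in 3 of them, above every other array, and 8.69 in Trp53ΔEC tumor 5. With the mixed tumors counted among the undifferentiated/spindle ones, the difference was −0.38 (adjusted p = 0.773). The widely used *Hk1* was not called by limma in any comparison, with 8.94 to 10.06 in undifferentiated/spindle and 9.32 to 10.19 in poorly differentiated carcinomas against 9.17 to 9.39 in skin, and its highest level, 12.01, was that of Trp53ΔEC tumor 5. Without this tumor in the fit *Hk1* rose in poorly differentiated carcinomas against skin by 0.55 (adjusted p = 0.0256), as it did by the unequal-variance test (0.0255).

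Phosphofructokinase, the step that commits sugar to glycolysis, is made of liver, platelet and muscle forms. The liver form *Pfkl* rose against skin in poorly differentiated carcinomas by 1.11 (SE 0.33, adjusted p = 0.0126), with 9.55 to 10.59 there against 8.60 to 9.24 in skin, and in undifferentiated/spindle carcinomas it ranged from 8.06 to 10.51 (0.37, adjusted p = 0.431). In poorly differentiated carcinomas 2 of its 3 probesets were called higher than skin, with differences from 0.29 to 1.18. The platelet form *Pfkp* was lower in undifferentiated/spindle carcinomas, with 7.93, 8.12, 8.82, 9.23 and 9.95, than in poorly differentiated ones, where it had 9.52 at the lowest, 10.42 at the median and 10.80 at the highest. The difference was −1.48 (SE 0.36, adjusted p = 0.0113), and the highest undifferentiated tumor overlapped the other group. With the median of its 3 probesets the difference was −0.74 (adjusted p = 0.249). Against skin its probesets disagreed. The brightest, used here, fell by 0.93 in undifferentiated/spindle carcinomas (adjusted p = 0.0237), while a dimmer one read 0.99 higher there (0.062), so that no direction against skin is given for *Pfkp*. *Pfkfb4*, which encodes an enzyme that makes the activator of phosphofructokinase, had 7.84, 8.19, 7.61, 7.29 and 7.71 in undifferentiated/spindle and 8.05 at the lowest, 8.58 at the median and 9.14 at the highest in poorly differentiated carcinomas, against 7.52 to 8.002 in skin. It rose by 0.91 in poorly differentiated carcinomas against skin (SE 0.18, adjusted p = 0.000527) and was lower in undifferentiated/spindle than in poorly differentiated ones (log2 difference −0.92, SE 0.21, adjusted p = 0.00915), with 1 spindle cell tumor in the range of the other group. The 4 mixed tumors, at 6.91 to 7.14, lay below every other array for *Pfkfb4*. Its relative *Pfkfb3* passed no test, with 6.91 to 8.07, 7.10 to 8.61 and 7.56 to 8.29 in undifferentiated/spindle carcinomas, poorly differentiated carcinomas and skin.

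**Figure D3:**
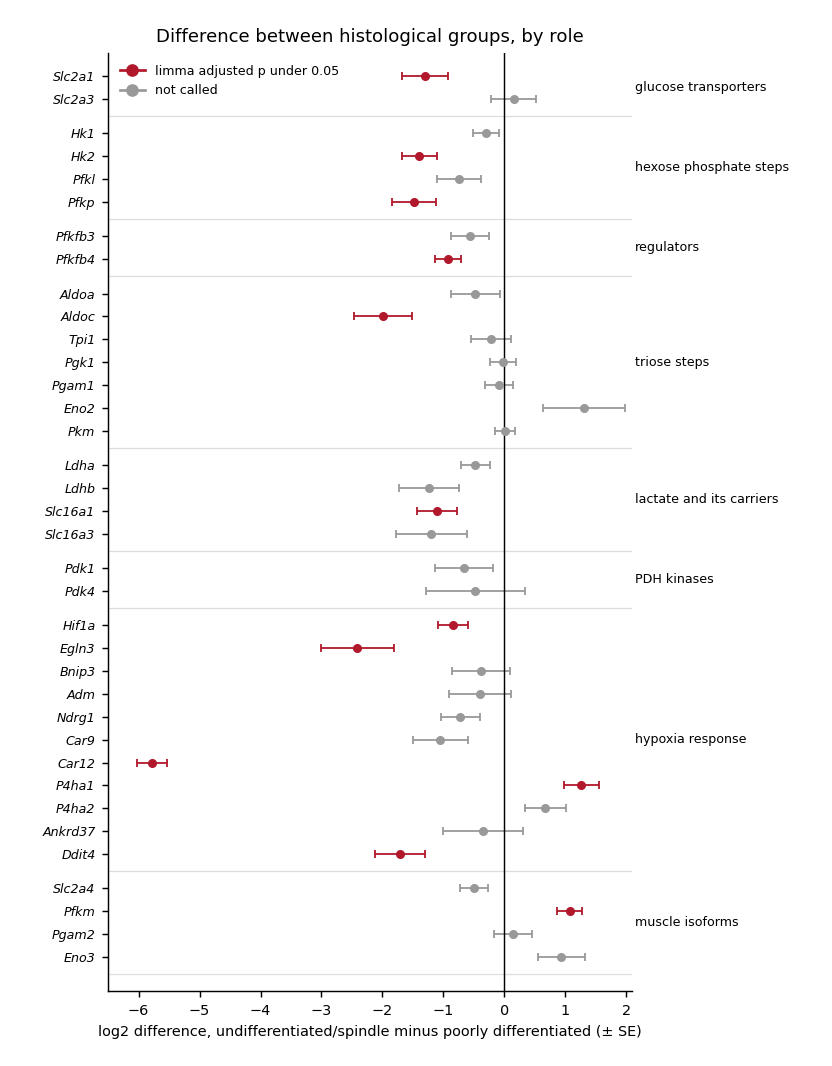
Log2 difference of undifferentiated/spindle (n = 5) minus poorly differentiated carcinomas (n = 6) for the 36 members by role, with bars for the standard error, in red where limma's adjusted p was under 0.05. The 10 red points left of 0 include *Car12* at −5.78 and *Egln3* at −2.41, those right of 0 are *P4ha1* and *Pfkm*, and *Pgk1*, *Pgam1* and *Pkm* lie near 0.

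Of the later steps of the pathway, *Pgk1*, *Pgam1* and *Pkm* rose against skin in both carcinoma groups. *Pgk1*, which encodes the first enzyme of glycolysis to make ATP, had 12.30 to 13.49 in undifferentiated/spindle and 12.63 to 13.10 in poorly differentiated carcinomas, against 11.84 to 12.26 in skin. It rose by 0.90 (SE 0.19, adjusted p = 0.000994) and by 0.92 (SE 0.19, adjusted p = 0.000666). *Pkm*, the pyruvate kinase gene of most tissues, had 12.39 to 13.21 in undifferentiated/spindle and 12.49 to 13.05 in poorly differentiated carcinomas, against 11.69 to 12.18 in skin. It rose by 0.85 (SE 0.15, adjusted p = 0.000141) and by 0.84 (SE 0.14, adjusted p = 0.00014). Every tumor lay above every skin sample in both genes. *Pgam1*, the general phosphoglycerate mutase, had the largest rise of the 3, with 10.88, 11.05, 11.66, 11.54 and 12.10 in undifferentiated/spindle carcinomas and 11.10 at the lowest, 11.46 at the median and 11.94 at the highest in poorly differentiated ones, against 9.80, 9.83, 9.46, 9.71 and 9.49 in skin. The differences were 1.79 (SE 0.20, adjusted p = 1.02e-06) and 1.87 (SE 0.19, adjusted p = 4.63e-07). Between the carcinoma groups these 3 genes differed by −0.08 to 0.02 with standard errors of 0.16 to 0.23.

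*Eno2*, the neuronal enolase, was at 4.17 to 4.46 in skin and above that in 14 of 15 tumors, but unevenly. It read 6.67, 5.42, 6.08, 8.26 and 9.32 in undifferentiated/spindle carcinomas and 4.82 to 6.79 in poorly differentiated ones. The rise was 2.87 in the undifferentiated/spindle group (SE 0.66, adjusted p = 0.00171), and the difference of 1.56 in the poorly differentiated group did not pass (SE 0.63, adjusted p = 0.0595). *Aldoc*, the aldolase of brain, was lower in undifferentiated/spindle carcinomas, with 5.95, 5.69, 6.01, 5.68 and 7.82 in undifferentiated/spindle carcinomas, against 7.20 at the lowest, 8.54 at the median and 9.12 at the highest in poorly differentiated ones (log2 difference −1.99, SE 0.47, adjusted p = 0.0101). The undifferentiated tumor at 7.82 lay within the other group's range. The mixed tumors, at 8.93 to 12.12, mostly lay above both, and with them counted among the undifferentiated/spindle ones the difference was −0.23 (adjusted p = 0.912). Between the carcinoma groups 1 of the 2 *Aldoc* probesets was called, and the other differed by −0.53. *Tpi1*, the triose phosphate isomerase gene, passed no test and ranged from 11.10 to 13.05, 11.72 to 12.95 and 12.29 to 12.79 in undifferentiated/spindle carcinomas, poorly differentiated carcinomas and skin. *Aldoa*, the aldolase that is most abundant in muscle, fell in both carcinoma groups, by 1.81 (SE 0.33, adjusted p = 0.000241) and by 1.33 (SE 0.32, adjusted p = 0.00276), with 10.68 to 13.01 and 11.62 to 13.03 in the carcinoma groups against 13.61 to 13.85 in skin, and all 5 of its probesets were called lower.

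Lactate dehydrogenase joins a form that favours lactate, *Ldha*, and one that favours pyruvate, *Ldhb*, and *Ldhb* was called against skin while *Ldha* was not. *Ldha* had 11.66 to 12.84 in undifferentiated/spindle and 12.07 to 12.99 in poorly differentiated carcinomas against 12.34 to 12.81 in skin, with differences of −0.32 (SE 0.22, adjusted p = 0.255) and 0.16 (SE 0.21, adjusted p = 0.587). *Ldhb* had 8.64, 7.79, 7.91, 7.41 and 7.57 in undifferentiated/spindle carcinomas and 7.74 at the lowest, 8.87 at the median and 10.49 at the highest in poorly differentiated ones, against 10.44, 10.91, 10.46, 10.14 and 10.62 in skin. It fell by 2.65 (SE 0.46, adjusted p = 0.00013) and by 1.41 (SE 0.44, adjusted p = 0.0158), and its direct difference between the carcinoma groups was −1.24 (SE 0.49, adjusted p = 0.0997). limma called this direct difference in the fit of 4 groups over all arrays (adjusted p = 0.0476) and without RbΔEC; Trp53ΔEC tumor 6 (−1.51, adjusted p = 0.0386). By the unequal-variance test the fall of *Ldhb* in poorly differentiated carcinomas against skin was lost (0.0644). Over all 15 tumors *Ldhb* fell by 1.53 (SE 0.55, adjusted p = 0.0343), a call lost without any 1 skin sample (0.0504 to 0.0838).

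Lactate leaves cells through the monocarboxylate carriers MCT1 and MCT4. *Slc16a1*, which encodes MCT1, had 10.59, 9.73, 9.71, 9.01 and 9.67 in undifferentiated/spindle carcinomas, against 10.23 at the lowest, 10.73 at the median and 11.68 at the highest in poorly differentiated ones. It rose in poorly differentiated carcinomas by 1.19 against skin (SE 0.35, adjusted p = 0.0118), where it had 9.39 to 10.14, and it was lower in undifferentiated/spindle than in poorly differentiated carcinomas (log2 difference −1.10, SE 0.32, adjusted p = 0.0301), with 1 spindle cell tumor in the other group's range. This second call was lost without any 1 of 7 arrays, Trp53ΔEC tumors 2 and 6 and RbΔEC; Trp53ΔEC tumors 1, 3, 5, 7 and 8 (0.0552 to 0.0737). Between the carcinoma groups 1 of the 2 *Slc16a1* probesets was called, and the other differed by −0.40. *Slc16a3*, which encodes the HIF-induced exporter MCT4, rose in poorly differentiated carcinomas by 1.81 (SE 0.49, adjusted p = 0.00629), with 8.27 to 9.72 against 6.72 to 7.37 in skin. In undifferentiated/spindle carcinomas it was split, with 6.06 and 6.46 in the spindle cell tumors and 7.57, 8.69 and 9.59 in the undifferentiated ones, and that group's difference from skin was 0.61 (SE 0.51, adjusted p = 0.361).

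Pyruvate dehydrogenase kinases close the mitochondrial route, *Pdk1* under HIF and *Pdk4* in fasting muscle and heart. *Pdk4* was the member outside the muscle isoforms that differed most from skin. It read 7.26, 5.34, 3.93, 5.60 and 5.32 in undifferentiated/spindle carcinomas and 3.87 at the lowest, 6.02 at the median and 7.87 at the highest in poorly differentiated ones, against 10.60, 10.92, 11.87, 11.51 and 12.18 in skin. No tumor came near the skin samples, and the level was 60.8 and 43.7 times lower (log2 differences −5.93, SE 0.73, adjusted p = 3.15e-06, and −5.45, SE 0.70, adjusted p = 6.84e-06). *Pdk1* was not called by limma in any comparison, with 6.78 to 9.44, 8.58 to 10.42 and 7.82 to 8.49 in undifferentiated/spindle carcinomas, poorly differentiated carcinomas and skin, and its probesets differed in direction. By the unequal-variance test it rose in the 15 tumors by 0.83 (adjusted p = 0.0172).

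All 4 muscle isoforms fell in tumors against skin. *Eno3*, the muscle enolase, had 8.14, 7.07, 6.96, 7.86 and 7.85 in undifferentiated/spindle carcinomas and 5.96 at the lowest, 6.37 at the median and 8.19 at the highest in poorly differentiated ones, against 13.19, 13.24, 13.12, 13.06 and 13.60 in skin. Over the 15 tumors its log2 difference was −6.14 (SE 0.33, adjusted p = 1.03e-11), and that of *Pgam2*, the muscle phosphoglycerate mutase, −5.82 (SE 0.36, adjusted p = 9.91e-11). *Pfkm* followed with −3.85 (SE 0.26, adjusted p = 4.85e-10) and *Slc2a4*, which encodes the insulin-responsive carrier GLUT4 of muscle and fat, with −2.42 (SE 0.23, adjusted p = 6.21e-08). In all 4 every tumor lay below every skin sample, a gap whose share over all genes was not counted. All 14 skeletal muscle markers fell as well, with a mean level of 4.93 to 8.69 in tumors against 12.87 to 13.62 in skin, and all 8 adipocyte markers fell, with 5.195 to 6.91 against 9.60 to 10.30. Muscle and fat thus moved with *Slc2a4*, *Pfkm*, *Pgam2*, *Eno3*, *Aldoa* and *Pdk4*, and their part in these falls was not tested.

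Among the tumors the muscle isoforms were not alike. Eno3 had its highest tumor level, 8.19, in Trp53ΔEC tumor 4 and Pgam2 its highest, 8.49, in Trp53ΔEC tumor 7, and the mean of the muscle markers on these arrays was 8.69 and 7.69, where the median over 15 tumors was 5.30. Eno3 was also at 7.86 and 7.85 in RbΔEC; Trp53ΔEC tumors 3 and 5, where the mean of the muscle markers was 4.97 and 5.10. *Pfkm* differed by histology, with 9.49, 8.82, 9.05, 9.02 and 9.12 in undifferentiated/spindle carcinomas, against 7.31 at the lowest, 8.10 at the median and 8.47 at the highest in poorly differentiated ones. It rose by 1.07 (SE 0.20, adjusted p = 0.00261), and none of the 14 muscle markers was called between these groups (their median log2 difference was −0.01). *Eno3* differed by 0.93 (SE 0.38, adjusted p = 0.107), *Pgam2* by 0.14 (SE 0.32, adjusted p = 0.807) and *Slc2a4* by −0.50 (SE 0.23, adjusted p = 0.155). limma called *Eno3* higher in the fit of 4 groups over all arrays (adjusted p = 0.0472) and without Trp53ΔEC tumor 4 (1.24, adjusted p = 0.00485).

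**Figure D4:**
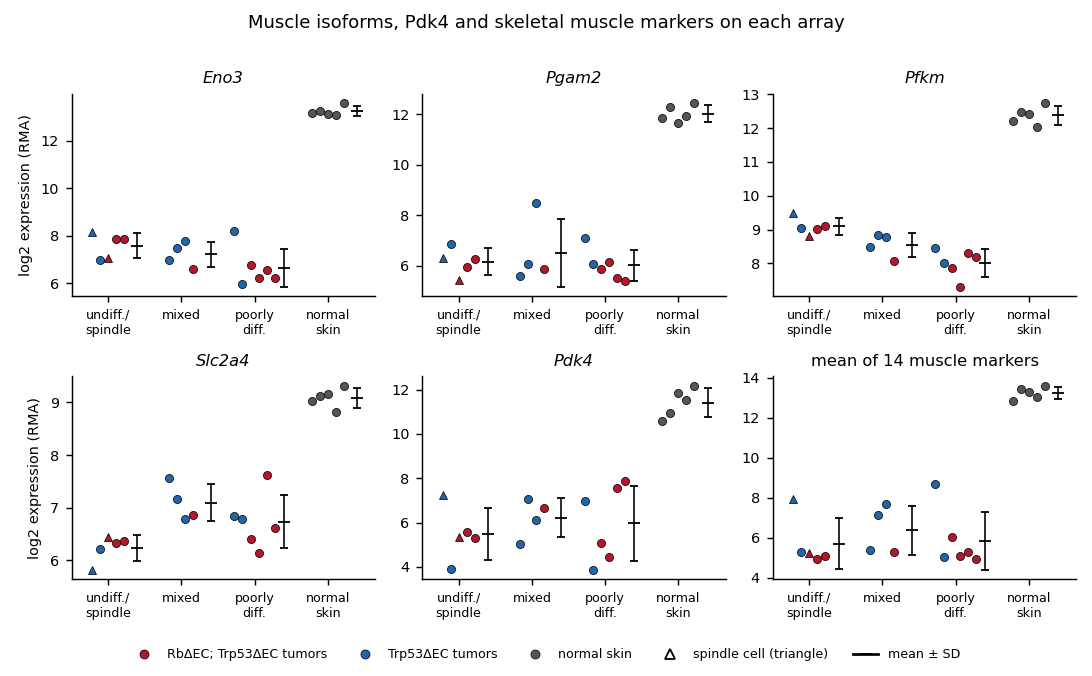
Log2 level of the 4 muscle isoforms, of *Pdk4* and of the mean of 14 skeletal muscle markers on each array, by histological group, with colour for genotype, triangles for spindle cell carcinomas and the mean ± SD beside each group (n = 5, 4, 6 and 5). All 15 tumors lie below all 5 skin samples in each panel, and *Pfkm* lies higher in undifferentiated/spindle than in poorly differentiated carcinomas.

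Set against each other within an array, paired isoforms changed unequally. The log2 level of *Pgam1* minus that of *Pgam2* was 5.28 ± 0.56 (SD, n = 5) in undifferentiated/spindle carcinomas, 4.61 ± 1.23 (SD, n = 4) in mixed and 5.50 ± 0.77 (SD, n = 6) in poorly differentiated ones, against −2.37 ± 0.36 (SD, n = 5) in skin. *Slc2a1* minus *Slc2a4* was 4.82 ± 0.83, 3.51 ± 0.23 and 5.62 ± 0.52 in the same tumor groups, against 0.38 ± 0.40 in skin. *Pdk1* minus *Pdk4* was 2.91 ± 1.91, 3.40 ± 1.24 and 3.09 ± 2.24, against −3.26 ± 0.75. These 3 pairs did not overlap between tumors and skin. Neither did *Pfkp* minus *Pfkm*, at −1.56 to 2.70 in tumors against −3.03 to −2.12, or *Eno2* minus *Eno3*, at −3.11 to 1.48 against −9.31 to −8.6. For *Pfkp* this rests on its brightest probeset. *Ldha* minus *Ldhb* did overlap: it was 4.37 ± 0.87 in undifferentiated/spindle and 3.61 ± 1.07 in poorly differentiated carcinomas, but 2.13 ± 0.63 in mixed tumors, beside 2.04 ± 0.26 in skin. *Hk2* minus *Hk1* was −0.49 ± 0.40, 2.04 ± 3.59 and 0.62 ± 0.68, against 1.09 ± 0.21, and the wide spread in mixed tumors came from Trp53ΔEC tumor 5, at −3.33. As probes differ in brightness, these differences are not ratios of transcripts, and their 0 has no meaning of its own.

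**Figure D5:**
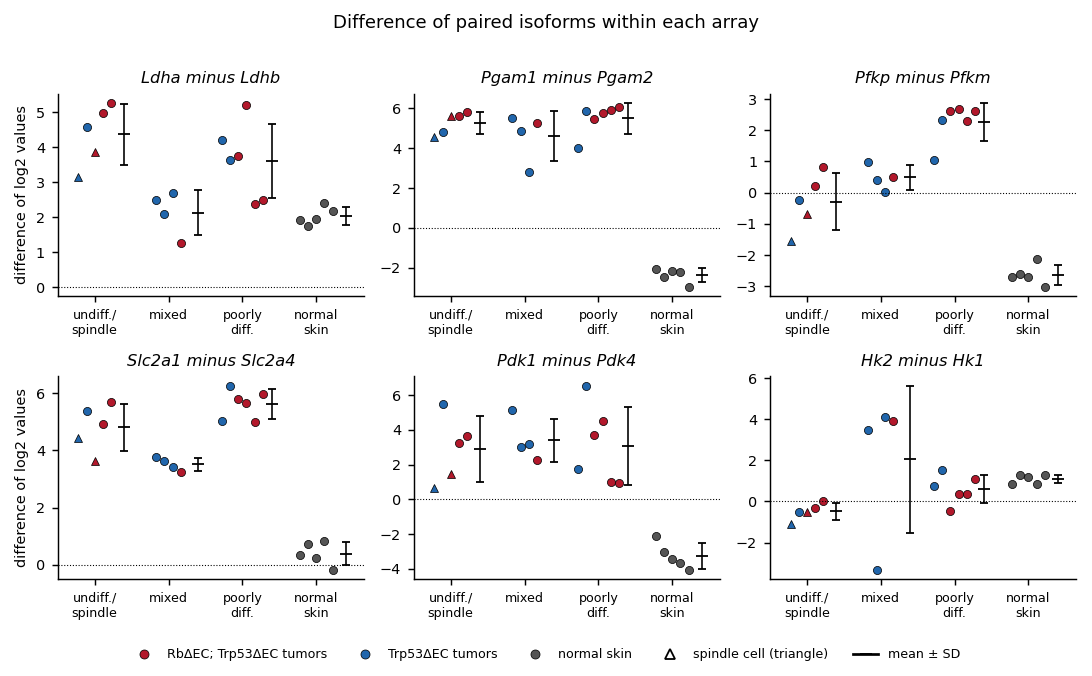
Difference of the log2 levels of 6 isoform pairs within each array, by histological group, with colour for genotype, triangles for spindle cell carcinomas and the mean ± SD beside each group (n = 5, 4, 6 and 5). *Pgam1* minus *Pgam2*, *Pfkp* minus *Pfkm*, *Slc2a1* minus *Slc2a4* and *Pdk1* minus *Pdk4* lie higher in all tumors than in all skin samples, and *Hk2* minus *Hk1* reaches from −3.33 to 4.12 in mixed tumors.

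The genotypes did not differ in any member past the test. In RbΔEC; Trp53ΔEC against Trp53ΔEC tumors limma called none of the 36, and the unequal-variance test called none either. At an unadjusted limma p under 0.05 there were 1 higher and 2 lower, beside 483 higher and 480 lower of all 18193 genes. The largest differences were those of *Ddit4*, with 7.25 at the lowest, 8.54 at the median and 9.95 at the highest of the 8 RbΔEC; Trp53ΔEC tumors, against 8.50, 9.61 and 12.76 in the 7 Trp53ΔEC tumors (log2 difference −1.62, SE 0.60, adjusted p = 0.842), and of *Ankrd37*, with 5.02 to 8.78 against 6.01 to 6.84 (1.14, SE 0.45, adjusted p = 0.868). The groups overlapped in both. *Slc2a1* differed by 0.29 (SE 0.50), *Hif1a* by 0.07 (SE 0.33) and *Car12* by −0.37 (SE 1.42). With histology as a covariate, or within the poorly differentiated tumors alone, no member was called. *Pgam2* differed by −0.83 (SE 0.34, adjusted p = 0.873), and the median log2 difference of the 14 muscle markers was −1.44, with a mean level of 4.93 to 6.07 against 5.05 to 8.69.

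Single tumors stood out over many members. RbΔEC; Trp53ΔEC tumor 1, a spindle cell carcinoma, had the lowest level of the 15 tumors in 12 of 36 members, among them *Slc2a1*, *Pfkl*, *Aldoa*, *Tpi1*, *Ldha*, *Pdk1* and *Bnip3*, and the other spindle cell carcinoma, Trp53ΔEC tumor 1, had it in 7. RbΔEC; Trp53ΔEC tumor 8, poorly differentiated, had the highest level in 9 members, 5 of them of the hypoxia response, and RbΔEC; Trp53ΔEC tumor 5, undifferentiated, in 8. How often these tumors were the extreme ones over all genes was not counted, so these numbers may not be particular to the members. In *Slc16a3*, *Egln3* and *Slc2a1* both spindle cell carcinomas lay below all 3 undifferentiated ones. The same held in many other members, among them *Pgk1*, *Pgam1*, *Pkm*, *Ldha* and *Hif1a*, while in *Slc16a1* and *Pfkfb4* both lay above. The joined undifferentiated/spindle group thus held unlike levels in these members. With 2 arrays this was not tested, and its share over all genes was not counted.

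Genes of the same pathways that were not members moved in both directions. Of 32 measured of 34 other genes of the HIF pathway and its targets, 9 rose and 7 fell in the 15 tumors against skin, 7 rose and 9 fell in undifferentiated/spindle carcinomas, and 12 rose and 6 fell in poorly differentiated ones. Over all genes 17.7% rose and 18.0% fell in the first comparison, 22.0% and 20.2% in the second, and 19.2% and 19.6% in the third. *Vegfa*, the vessel growth factor of this response, lay at 8.80 to 9.69 in undifferentiated/spindle and 8.62 to 10.13 in poorly differentiated carcinomas against 6.98 to 7.54 in skin, and rose by 2.04 over all tumors (SE 0.24, adjusted p = 1.31e-06). *Ero1a*, which oxidizes proteins in the endoplasmic reticulum, rose by 1.70 (adjusted p = 0.00297), *Plod2*, a collagen lysyl hydroxylase, by 2.02 (0.0198), and *Tmem45a* fell by 2.68 (0.0121). Between the carcinoma groups 4 of the 32 rose and 8 fell, beside 12.7% and 9.9% of all genes. *Plod2* rose by 2.44 (SE 0.35, adjusted p = 0.000418) and *Plod1* by 2.23 (SE 0.29, adjusted p = 0.00023), both of which encode collagen-modifying enzymes, while the transferrin receptor gene *Tfrc* fell by 1.81 (adjusted p = 0.00222) and *Tmem45a* by 2.47 (0.0164).

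Of 13 measured of 17 other glycolysis genes 2 rose and 2 fell in the tumors against skin, led by the fall of the carrier gene *Slc2a12* (−3.09, adjusted p = 8.86e-06) and the rise of the phosphoglucomutase gene *Pgm2* (1.16, adjusted p = 1.65e-05), and between the carcinoma groups 3 rose and none fell. Over all genes 17.7% rose and 18.0% fell in tumors against skin, and 12.7% and 9.9% between the carcinoma groups. Pyruvate oxidation, the mitochondrial route, had 5 of 10 measured genes lower in tumors than in skin and 1 higher, where 18.0% of all genes fell and 17.7% rose. The 14 skeletal muscle and 8 adipocyte markers fell in the same comparison, and their part in these falls was not tested. The dehydrogenase subunit gene *Pdha1* fell by 0.92 (SE 0.13, adjusted p = 1.29e-05), the mitochondrial pyruvate carrier gene *Mpc1* by 1.03 (SE 0.22, adjusted p = 0.00123) and the kinase gene *Pdk2* by 3.15 (SE 0.31, adjusted p = 1.42e-07), while *Pdk3* rose by 0.72 (SE 0.20, adjusted p = 0.00709). Of 6 measured pentose phosphate genes 1, *Rpe*, rose by 0.69 (adjusted p = 0.00475) and none fell. None of the measured genes of these 4 lists was called between the genotypes.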

How the data were processed

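Total RNA of 15 mouse tumors and 5 skin samples had been hybridized to Affymetrix MOE430 2.0 arrays, 1 per sample. The deposited values are log2 probeset levels that the authors made with RMA (background correction, normalization across arrays and summary per probeset), whose version is not stated. RMA compresses differences of dim probesets, and the number of arrays limits the precision. Of 45101 probesets 64 controls were left out, and 34945 carry 1 gene symbol in the platform annotation, 932 several and 9160 none. The probeset with the highest mean over 20 arrays stood for each of 18193 genes. Groups came from the labels. Tumors against skin, the histological groups and the genotypes were compared with limma 3.58.1 (lmFit, eBayes, two-sided) in R 4.3.3, with Benjamini-Hochberg adjustment over all genes and calls at an adjusted p under 0.05. Each carcinoma group against skin was fitted with 4 groups over all arrays, and the direct comparison on 11 carcinomas. limma was tested on simulated data. Alternatives were the median of probesets, adjustment over all probesets, arrays centred on their median, a minimum of 6, a trended robust prior, an unequal-variance test per gene, a replicate block, other groupings, covariates and leaving out each array. Every member is named, and of the other lists at most 4 genes past the test with the largest change. The members and lists were chosen with earlier results of these data known. Promoter windows are RefSeq's on GRCm38.p6. Tables and figures used Python 3.11.15, numpy 2.4.6, pandas 2.3.3 and matplotlib 3.10.9.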

Additional observations from a re-analysis of the deposited data

Results flagged for a closer look

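Of 216 pairs of a member and a group of 4 to 8 arrays, 11 had 1 array farther from the rest than Dixon's test allows at the 95% level, and chance gives about 1 in 20. RbΔEC; Trp53ΔEC tumor 1, a spindle cell carcinoma, lay low among the 8 RbΔEC; Trp53ΔEC tumors in 4 members. It had 8.057 for *Pfkl* (the others 9.668 to 10.585), 6.464 for *Slc16a3* (8.267 to 9.719), 6.782 for *Pdk1* (8.578 to 8.998) and 8.485 for *Bnip3* (10.338 to 11.742). Among undifferentiated/spindle carcinomas *Aldoc* stood high in RbΔEC; Trp53ΔEC tumor 5, at 7.821 against 5.675 to 6.009 in the others. Among poorly differentiated carcinomas *Pdk1* stood high in Trp53ΔEC tumor 6, at 10.421 against 8.578 to 8.998, and *Eno3* in Trp53ΔEC tumor 4, at 8.187 against 5.955 to 6.744. Among mixed tumors *Ldhb* stood high in RbΔEC; Trp53ΔEC tumor 4, at 11.375 against 9.78 to 9.909, and *Pgam2* in Trp53ΔEC tumor 7, at 8.485 against 5.579 to 6.07. *P4ha1* stood high in Trp53ΔEC tumor 5 among the Trp53ΔEC tumors, at 11.931 against 8.622 to 9.992, and *Hif1a* in skin sample 1 among the skin samples, at 11.102 against 10.519 to 10.618.

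Of the 12 members that limma called in undifferentiated/spindle against poorly differentiated carcinomas, 8 were also called against skin in at least 1 of these groups. These were *Car12* (log2 difference −5.783), *Egln3* (−2.411), *Pfkp* (−1.484), *Slc2a1* (−1.305), *Slc16a1* (−1.101), *Pfkfb4* (−0.921), *Hif1a* (−0.837) and *Pfkm* (1.072). For *Pfkp* no direction against skin is given. Both groups are set against the same skin arrays. For all 12 members their differences from skin therefore differ by the direct difference, and a call against skin adds nothing to it.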

How the results depend on the processing

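Of 4461 values of single members under an alternative, 4332 kept their direction and their side of the threshold, 75 lost a call, 52 gained one and 2 reversed. The reversals were both of *Pfkp* against skin with the median of its probesets, at 1.212 in the 15 tumors (adjusted p = 0.0152) and 0.991 in undifferentiated/spindle carcinomas (adjusted p = 0.0581). By the unequal-variance test *Eno2* (adjusted p = 0.0202) and *Ddit4* (0.00555) gained a call in poorly differentiated carcinomas against skin, and *Car9* (0.0213) and *Hk2* (0.0149) in undifferentiated/spindle ones. By the same test 5.0 members fell between the carcinoma groups, and the other counts stayed within 1.5 times their value under every alternative that kept all arrays. When each array was left out in turn, 7 to 12 members rose and 6 to 8 fell in tumors against skin, 7 to 8 rose and 7 to 12 fell in undifferentiated/spindle carcinomas against skin, 13 to 18 rose and 7 to 8 fell in poorly differentiated carcinomas against skin, 2 to 3 rose and 7 to 11 fell between the carcinoma groups, and 0 were called between the genotypes. The genotypes and skin share replicate numbers. Over all genes, deviations of same-numbered arrays from their group means correlated between −0.478 and 0.64. The highest, 0.628 and 0.64, were between the tumors numbered 1 and 6, which shared a histology. The numbers were not taken to pair the samples. With the number as a replicate block, on the arrays numbered 1 to 5 only, 8 members rose and 7 fell in tumors against skin. Between the genotypes 0 rose and 0 fell with the number as a block. The histological groups carry no replicate numbers of their own and were not blocked. The balance of *Eno1* and *Eno3* was not run.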
